A study of Arabidopsis thaliana with 4 samples.

Results

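The NAC factors of senescence and stress are 10 Arabidopsis thaliana genes, ORE1, NAP, ANAC019, ANAC055, ANAC072 (also RD26), JUB1, ATAF1, ATAF2, NAC032 and NAC102. They were taken by locus identifier, and all 10 were found among the 31319 loci measured. Leaf RNA of 4-week-old plants was sequenced in 4 libraries, 1 per group. Col-0 wild type (WT) was taken before submergence, called air, and after submergence, called R3, and the myc2-2 mutant was taken in the same conditions. Each library came from 6 plants, and the study's title asks how jasmonate acts in plants returning from submergence to air. MYC2, the factor mutated in myc2-2, activates many jasmonate-responsive genes. The sample labels place R3 at 3 h after submergence. The treatment protocol instead gives 24 h of submergence in the dark, followed by reoxygenation with harvests at 0 and 24 h, and the label was followed here. R3 and air differ in darkness and time of harvest as well as in submergence, and no library is labelled as kept dark in air, so these cannot be told apart. With 1 library per group no test was possible, no difference below has a replicate check, and intervals cover the counting of reads only.

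NAC proteins are plant transcription factors that share an amino-terminal NAC domain, which binds DNA and forms dimers, and differ in a variable carboxy-terminal part that regulates transcription. ORE1 and NAP promote leaf senescence. ORE1 acts downstream of the ethylene signalling protein EIN2, and its transcript is a target of the microRNA miR164. ANAC019, ANAC055 and ANAC072 are close relatives that act in jasmonate, abscisic acid and drought responses, and MYC2 has been reported to activate them when a bacterial toxin mimics jasmonate. ATAF1, ATAF2, NAC032 and NAC102 form the ATAF group, which acts in wounding, oxidative stress and abscisic acid responses. JUB1 is induced by hydrogen peroxide and delays senescence.

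The miR164 site sets ORE1 apart from the other 9 genes by sequence. The mature microRNAs are shown in the reference sequence (RefSeq, TAIR10.1), with the seed, bases 2 to 8, in capitals, together with the best-matching stretch of the ORE1 coding sequence and, for comparison, those of NAC1, NAC080 (ANAC080) and ORS1, a relative of ORE1 in senescence, with the bases facing the seed in capitals.
miR164a: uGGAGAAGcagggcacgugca
miR164c: uGGAGAAGcagggcacgugcg
ORE1: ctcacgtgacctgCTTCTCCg
NAC1: agcacgtaccctgCTTCTCCa
NAC080: tttacgtgccctgCTTCTCCa
ORS1: ctcacgttacctaCTTCTCCg
miR164b has the same mature sequence as miR164a. The ORE1 stretch lies in exon 3 at chr5:15858797-15858817 on the minus strand and had 4 mismatches to miR164a, none of them facing the seed. NAC1, NAC080 and NAC100 had 2 mismatches each. ORS1 had 6, and CUC1 and CUC2 had 3, of which 1 faced the seed. The best stretch in each of the other 9 genes had 8 to 10 mismatches, which is where 102 of the 115 NAC genes read in this way lay. The 3 loci that encode miR164 were not analysed here.

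The 10 genes lie on the 5 nuclear chromosomes and have 3 exons each. Positions are those of TAIR10.1. ORE1 (AT5G39610) lies at chr5:15858398-15859911, NAP (AT1G69490) at chr1:26122080-26123514, and ANAC019 (AT1G52890) at chr1:19696923-19698482. ANAC055 (AT3G15500) lies at chr3:5234457-5236196, ANAC072 (AT4G27410) at chr4:13707192-13709170 and JUB1 (AT2G43000) at chr2:17880457-17882636. The ATAF group lies at chr1:267993-269819 (ATAF1, AT1G01720), chr5:2858849-2860558 (ATAF2, AT5G08790), chr1:29099839-29101759 (NAC032, AT1G77450) and chr5:25526509-25528281 (NAC102, AT5G63790). The proteins are most alike in 3 pairs: ATAF2 and NAC102 share 79.9% of residues over the shorter protein, ANAC019 and ANAC055 share 74.1%, and ATAF1 and NAC032 share 70.0%. Despite this, no stretch of 50 bases from the exons of any of the 10 genes was found elsewhere in the genome.

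The letters CACGTG, a G-box that MYC2 and the abscisic acid-responsive ABF factors are known to bind, were found within 250 bases upstream of the annotated start in 3 of the 10 genes. They are shown because these genes stand at different places in the mutant comparison below. The capitals mark CACGTG, which reads the same on both strands.
NAP: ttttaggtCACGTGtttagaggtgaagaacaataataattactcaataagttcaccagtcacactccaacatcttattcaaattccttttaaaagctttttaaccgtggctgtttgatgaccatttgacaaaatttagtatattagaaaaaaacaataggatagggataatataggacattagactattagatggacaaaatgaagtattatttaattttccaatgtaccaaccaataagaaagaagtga
ANAC019: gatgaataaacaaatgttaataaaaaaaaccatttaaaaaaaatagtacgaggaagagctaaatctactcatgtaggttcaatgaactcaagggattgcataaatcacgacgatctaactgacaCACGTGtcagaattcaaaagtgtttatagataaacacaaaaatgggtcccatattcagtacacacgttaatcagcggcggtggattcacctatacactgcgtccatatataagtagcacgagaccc
NAC032: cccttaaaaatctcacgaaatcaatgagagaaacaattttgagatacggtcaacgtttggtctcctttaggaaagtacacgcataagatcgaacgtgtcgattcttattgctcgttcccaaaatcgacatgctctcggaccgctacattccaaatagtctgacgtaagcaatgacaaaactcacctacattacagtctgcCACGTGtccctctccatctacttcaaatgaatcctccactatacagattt
These windows are chr1:26121830-26122079 (plus strand) for NAP, chr1:19698483-19698732 (minus strand) for ANAC019 and chr1:29099589-29099838 (plus strand) for NAC032 in TAIR10.1. The first base of CACGTG stands 242 bases upstream of the start in NAP, 126 in ANAC019 and 50 in NAC032. Of 26711 promoters of the same length, 6.58% hold CACGTG. The shorter ACGTG, part of CACGTG and read on both strands, was found in 4 of the 10 genes, the fourth being ANAC072, and in 23.1% of all promoters. CATGTG, part of a site that the ANAC019 group binds in the ERD1 promoter, was found in none of the 10 windows and in 11.2% of all promoters. A match describes the letters only.

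The library labels were checked on MYC2. Its level in RPKM, which scales reads to gene length and to 1000000 mapped reads, was 45.9 in air and 91.7 at R3 in WT, and 14.2 and 34.9 in myc2. MYC2 was thus lower in myc2 in air and at R3, but well above 0 in each library. MYC2 shares exon bases on the opposite strand with AT1G32630. Mapped reads, recovered from the deposited values, numbered 29208488 and 27716154 in the air and R3 libraries of WT, and 30462393 and 22308542 in those of myc2. The 50 highest loci held 39.1% and 33.0% of the summed RPKM in WT air and myc2 air, against 13.3% and 17.3% in WT R3 and myc2 R3. The 5 leaf photosynthesis markers summed to 34835 RPKM (WT) and 26994 RPKM (myc2) in air, and to 4212 in each R3 library, so the leaf label held while these transcripts differed widely between air and R3. The 4 seed markers summed to at most 0.411 RPKM in any library. In bulk leaf RNA, fewer cells of a type and less RNA per cell cannot be told apart.

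All 10 genes were higher at R3 than in air, in WT and in myc2. Taken per length, their summed level was 60.2 RPKM in air and 756 at R3 in WT, and 48.9 in air and 975 at R3 in myc2. In air, 3 of them stood below 1 RPKM in WT (ORE1, ANAC055 and JUB1), and the 4 highest were ATAF2, NAC102, ATAF1 and ANAC019. At R3, 9 of the 10 stood at or above 19.9 RPKM in WT, and ATAF1, the highest, was 531st of all loci.

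**Figure D1:**
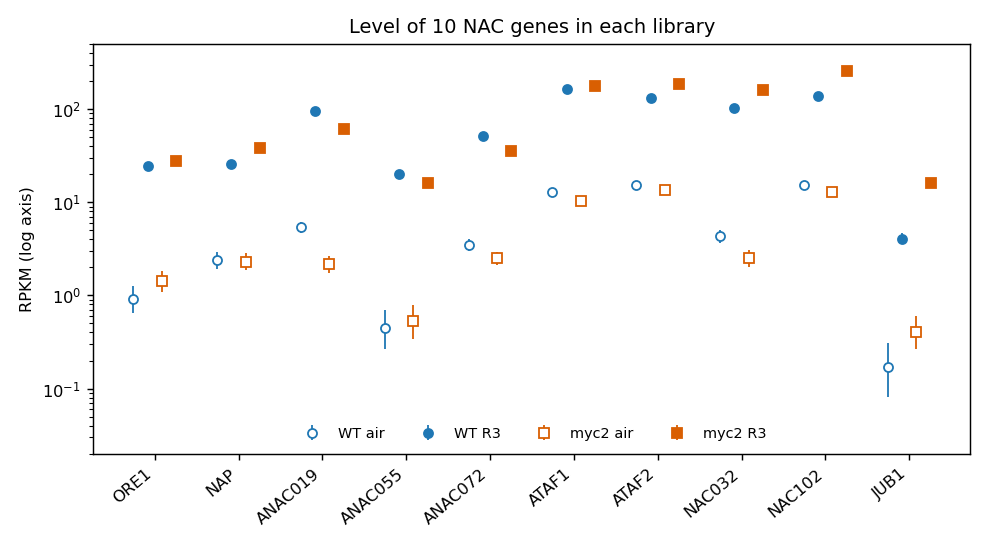
Level of each of the 10 NAC genes in the 4 libraries, in RPKM on a log axis. Open symbols are air and filled symbols R3, circles are WT and squares myc2, and bars are 95% counting intervals. Every filled symbol lies above both open symbols of the same gene, and JUB1 is the lowest of the 10 in all 4 libraries.

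ORE1, the senescence regulator, stood at 0.912 RPKM in air and 24.4 at R3 in WT, and 1.42 in air and 27.7 at R3 in myc2, from 37, 939, 60 and 857 reads. It was low in both air libraries and high in both R3 libraries. The myc2 level was 1.55 times that of WT in air (1.02 to 2.41) and 1.13 times at R3 (1.03 to 1.25). Its RPKM ratio of R3 to air was 26.7 in WT (95% counting interval 19.3 to 38.2) and 19.5 in myc2 (15.0 to 25.8), intervals that overlap.

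NAP, a NAC gene first described as activated by the floral factors AP3 and PI and later as a senescence regulator, stood at 2.40 RPKM in air and 26.0 at R3 in WT, and 2.30 in air and 38.0 at R3 in myc2. Air levels were alike in the genotypes and the R3 level was higher in myc2. The ratio of R3 to air was 10.8 in WT (8.72 to 13.6) and 16.5 in myc2 (13.3 to 20.7). AP3 was listed at 0.651, 0.325, 2.27 and 1.62 RPKM in the same order of libraries, and PI at 0.609, 11.3, 2.08 and 17.0. The 7 floral markers summed to 6.45, 13.7, 12.1 and 23.4 RPKM, of which PI made the larger part at R3. Without PI the other 6 summed to 5.85, 2.42, 10.05 and 6.40 RPKM, and all 6 were lower at R3 than in air in WT, SEP1 at 2.60 and 1.48 RPKM and SEP3 at 1.36 and 0.351. AP1 and AG stood at most at 1.10 and 0.422 RPKM. Their part in the NAP levels was not tested.

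ANAC019 stood at 5.37 RPKM in air and 96.6 at R3 in WT, and 2.15 in air and 60.6 at R3 in myc2, from 232, 3958, 97 and 2001 reads. It was lower in myc2 than in WT in both conditions. ANAC055, its closest relative by protein, stood at 0.442, 19.9, 0.535 and 16.2 RPKM in the same order, with 19 and 24 reads in the air libraries. ANAC055 was low in air in both genotypes, where its counting intervals overlap. ANAC072 stood at 3.46, 50.9, 2.49 and 35.7 RPKM and, like ANAC019, was lower in myc2 in both conditions. The ratios of R3 to air in WT were 18.0 (15.7 to 20.6) for ANAC019, 45.0 (28.6 to 75.1) for ANAC055 and 14.7 (12.7 to 17.1) for ANAC072.

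ATAF1 stood at 12.8 RPKM in air and 163 at R3 in WT, and 10.4 in air and 176 at R3 in myc2. The R3 levels differed little between the genotypes. ATAF2 stood at 15.2, 130.3, 13.7 and 187 RPKM in the same order, and was higher in myc2 at R3. NAC102, the closest relative of ATAF2, stood at 15.2, 137, 13.0 and 257 RPKM, the highest level that any of the 10 genes reached. NAC032, the closest relative of ATAF1, stood at 4.29, 104, 2.51 and 160.4 RPKM. It was the lowest of the 4 in air and at R3, but closer to the others at R3. The ratio of R3 to air for NAC032 was 24.2 in WT (20.7 to 28.5) and 63.9 in myc2 (52.4 to 78.7), intervals that do not overlap.

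JUB1, which delays senescence, stood at 0.169 RPKM in air and 4.07 at R3 in WT, and 0.406 in air and 16.1 at R3 in myc2, from 10, 228, 25 and 728 reads. It was the lowest of the 10 in every library, and its R3 level in myc2 stood far above that in WT. The ratio of R3 to air was 24.0 in WT (12.8 to 50.8) and 39.8 in myc2 (26.7 to 61.9), and the few reads in air leave both ratios wide.

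Exons of 4 of the genes overlap a locus on the opposite strand, and the use of strand in counting is not given in the sources used here. Reads of such pairs cannot be told apart. AT2G42990, opposite JUB1, was listed at 0.134, 0.0706, 1.91 and 0.175 RPKM in the 4 libraries, in the order WT air and R3, then myc2 air and R3, and so was low where JUB1 was high. AT5G63780, opposite NAC102, was listed at 56.9, 6.89, 48.5 and 7.57 RPKM. AT1G01725, opposite ATAF1, was listed at 6.61, 11.6, 7.04 and 22.9 RPKM, and AT5G08780, opposite ATAF2, at 1.98, 3.53, 2.29 and 4.15. Another locus opposite ATAF1, AT1G04043, was not among the loci measured. The part of these loci in the levels of the NAC genes was not tested.

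The order of the genes within a library changed from air to R3. In WT air, ATAF2, NAC102 and ATAF1 led, and the counting intervals of ATAF2 and NAC102 overlap. ANAC019 and NAC032 followed with overlapping intervals. In WT R3, ATAF1 led, NAC102 and ATAF2 were next with overlapping intervals of 133 to 141 and 127 to 134 RPKM, and ORE1 and NAP overlapped further down. In myc2 R3, NAC102 led, followed by ATAF2, ATAF1 and NAC032, with no overlap between NAC102 and ATAF2. At the low end of that library, ANAC055 and JUB1 overlapped at 14.8 to 17.6 and 15.0 to 17.4 RPKM.

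For the comparison across all loci, 1 RPKM was added to every value before the log2 ratio was taken, loci whose mean over both libraries was under 1 RPKM were left out, and those differing at least 2-fold were counted. In WT R3 against WT air, 31.3% of 17271 loci were at least 2-fold higher and 10.1% at least 2-fold lower, with a median log2 ratio of 0.57. All 10 NAC genes were at least 2-fold higher, with a median of 3.55. In myc2 R3 against myc2 air the shares were 23.5% and 11.5% of 17737 loci with a median of 0.30, and again all 10 NAC genes were at least 2-fold higher, with a median of 3.64. ORE1, ANAC055 and JUB1, below 1 RPKM in WT air, passed the filter through their R3 level, so their place among the higher loci in WT follows in part from it, as it does for other low loci in the counts below. The same holds in myc2 for ANAC055 and JUB1, at 0.535 and 0.406 RPKM in myc2 air. Rescaled to the median of ratios, the median of all loci went from 0.57 to 0.04 in WT and from 0.30 to 0.03 in myc2, and the higher share of all loci counted went from 75.5% to 50.3% in WT and from 67.3% to 51.9% in myc2. On the log2 scale the 10 responses in WT ran from 2.12 (JUB1) to 4.31 (NAC032), and the lowest value under any of the 3 rescalings was 1.88, again for JUB1. In myc2 they ran from 3.39 (ANAC072) to 5.52 (NAC032). JUB1, the lowest in WT, was 1623rd from the top of the 17271 loci, while the other 9 were within the top 707. The place of JUB1 depends on the added 1 RPKM. With 0.1 RPKM added it stood at 3.95 in WT, above NAP, ANAC072, ATAF1, ATAF2 and NAC102. With 5 RPKM added it stood at 0.81.

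**Figure D2:**
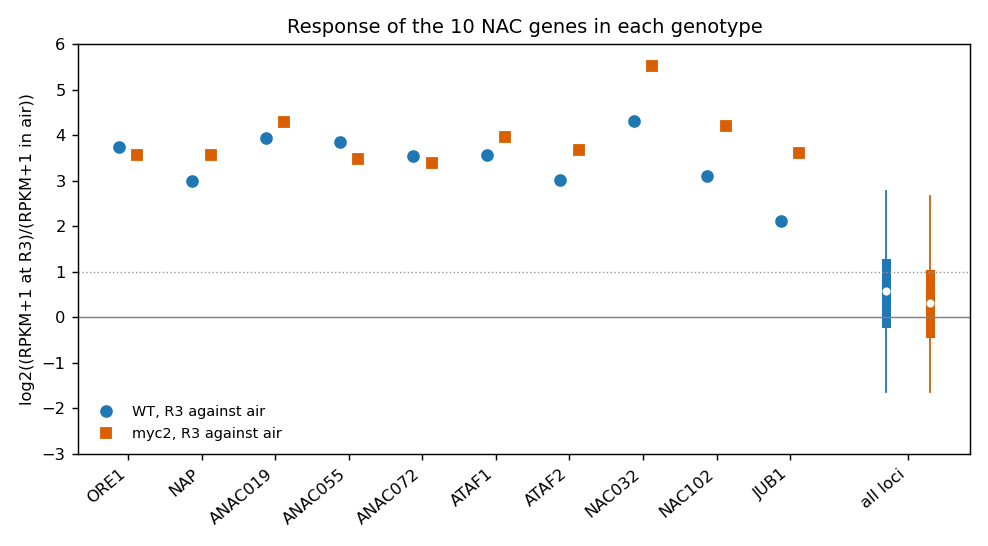
Response of each of the 10 NAC genes, as log2 of (RPKM + 1 at R3) over (RPKM + 1 in air), in WT (circles) and myc2 (squares). The bars at the right show all loci tested, with the median as a white point, the thick bar from the 25th to the 75th and the thin bar from the 5th to the 95th percentile, and the dotted line is 2-fold. All 10 genes lie above the dotted line in both genotypes, and the WT median of all loci is 0.57.

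In air, 7 of the 8 NAC genes past the filter were lower in myc2 than in WT, most of them by less than 2-fold. Of the 16616 loci compared, 2.47% were at least 2-fold higher and 0.343% at least 2-fold lower in myc2. The median log2 ratio was 0.22, and 13052 of these loci lay above 0. ANAC019 was the only one of the 8 NAC genes past the filter to be at least 2-fold apart, at a log2 ratio of -1.01, and was the 56th lowest of all loci. With 5 RPKM added its log2 ratio was -0.54, under the 2-fold line, and a filter at a mean of 5 RPKM left it out. Its RPKM ratio of WT to myc2 was 2.49 (1.96 to 3.20). NAC032 followed at -0.59 and ANAC072 at -0.35, the 207th and 634th lowest, both below the 5th percentile of all loci at -0.31. ATAF1, NAC102, ATAF2 and NAP lay between -0.28 and -0.04. ORE1 alone lay above 0, at 0.34. ANAC055 and JUB1 missed the filter, with 19 and 24 reads and 10 and 25 reads in WT and myc2. ANAC019 and NAC032, the lowest of the 8, both hold CACGTG in the windows shown above, and so does NAP, which was level between the genotypes. At R3 the log2 ratio of myc2 to WT was 0.62 for NAC032, 0.53 for NAP and -0.66 for ANAC019. The part of CACGTG in these values was not tested. Rescaled to the median of ratios, the higher share of all loci counted went from 87.8% to 62.9%.

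At R3, the NAC genes lay on both sides of WT in the mutant. Of 17491 loci, 1.92% were at least 2-fold higher and 1.6% at least 2-fold lower in myc2 than in WT, with a median log2 ratio of 0.04. JUB1 was the only one of the 10 at least 2-fold apart, at 1.76 on the log2 scale, and was the 53rd highest of all loci. Its RPKM ratio of myc2 to WT was 3.97 (3.41 to 4.62). NAC102 stood at 0.91, a ratio of 1.88 (1.82 to 1.94), NAC032 at 0.62, NAP at 0.53 and ATAF2 at 0.52. All 3 genes of the ANAC019 group were lower in myc2, ANAC019 at -0.66, ANAC072 at -0.50 and ANAC055 at -0.28. ORE1 at 0.17 and ATAF1 at 0.11 were nearly level, and ATAF1 turned to -0.03 under rescaling to equal sums. That rescaling also took the higher share of all loci counted from 54.5% to 39.9%.

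**Figure D3:**
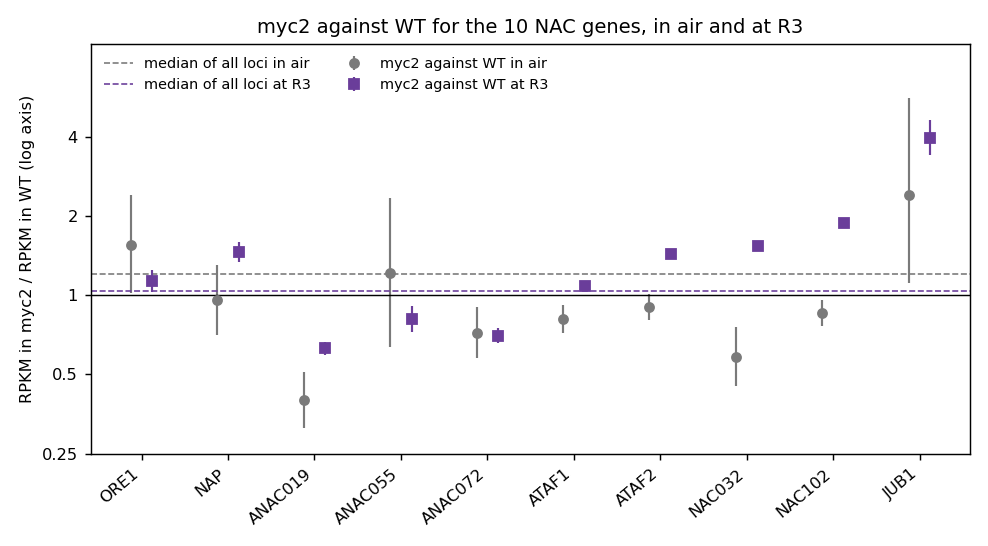
RPKM in myc2 divided by RPKM in WT for each of the 10 NAC genes, on a log axis, in air (grey circles) and at R3 (purple squares), with 95% counting intervals. Dashed lines are the medians of all loci. The 3 genes of the ANAC019 group lie below 1 at R3. The other 7 lie above it, ORE1 at 1.13 and ATAF1 at 1.08 the closest to 1. The air intervals of ANAC055 and JUB1 are wide.

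Ratios between genes of 1 library do not depend on the scaling of that library. The summed level of the ATAF group was 5.12 times that of the ANAC019 group in WT air, 3.19 times in WT R3, 7.64 times in myc2 air and 6.94 times in myc2 R3. The ATAF group thus had a higher summed level than the ANAC019 group in every library, and the ratio was larger in both myc2 libraries than in either WT library. NAC102 stood at 1.18 times ATAF1 in WT air, 0.842 times in WT R3, 1.25 times in myc2 air and 1.46 times in myc2 R3, so that WT R3 was the only library where ATAF1 was the higher. NAC032 stood at 0.799, 1.08, 1.17 and 2.65 times ANAC019 in the same order.

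The difference of the responses was taken as the log2 response in myc2 less that in WT. Over 17540 loci it was at least 2-fold higher in 1.51% and at least 2-fold lower in 5.2%, with a median of -0.16. Of the 10 NAC genes, 3 were at least 2-fold higher and none lower: JUB1 at 1.49, NAC032 at 1.21 and NAC102 at 1.11. NAC032 fell under the 2-fold line, at 0.91, with 5 RPKM added, and NAC102, at 0.94, under rescaling to equal sums. ATAF2 (0.66), NAP (0.57) and ATAF1 (0.39) lay above 0 as well. ANAC055 lay at -0.37. ANAC019 at 0.35, ORE1 at -0.16 and ANAC072 at -0.15 changed sign with the setting. The JUB1 value, which rests on 10 reads in WT air, was 0.73 without the added 1 RPKM. The higher share of all loci counted was 22.4% as deposited, 48.7% after rescaling to the median of ratios and 12.1% after rescaling to an equal sum.

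The rest of the NAC family, taken by name from the reference, comprised 105 loci in the tables. In WT R3 against WT air, 41 of them were past the filter, and 36 were at least 2-fold higher and none lower, with a median log2 ratio of 1.68. In myc2, 32 of 42 were higher by that measure and none lower, and their median was 1.63. Among the family loci past the filter, the share of higher ones thus lay above the 31.3% and 23.5% of all loci, and not in the 10 genes alone. Part of this follows from the filter. Several of these loci, such as NAC003 at 0.728 RPKM in WT air and 23.9 in WT R3, passed it only through their R3 level. The family loci that missed the filter were not compared. At a mean of at least 5 RPKM, the highest were NAC047 at 4.54 (1.11 RPKM in WT air and 48.0 in WT R3), NAC001 (AT1G01010) at 4.40 and NAC003 at 3.85. The lowest were NAC2 (AT3G15510) at -0.28, NAM at -0.17 and LOV1 at 0.70. Between genotypes in air none of 25 was 2-fold apart. At R3, 1 of 46 was higher in myc2, AT3G12910 at 1.23, and 1 was lower, NST1 at -1.34. These were named after their values were seen.

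**Figure D4:**
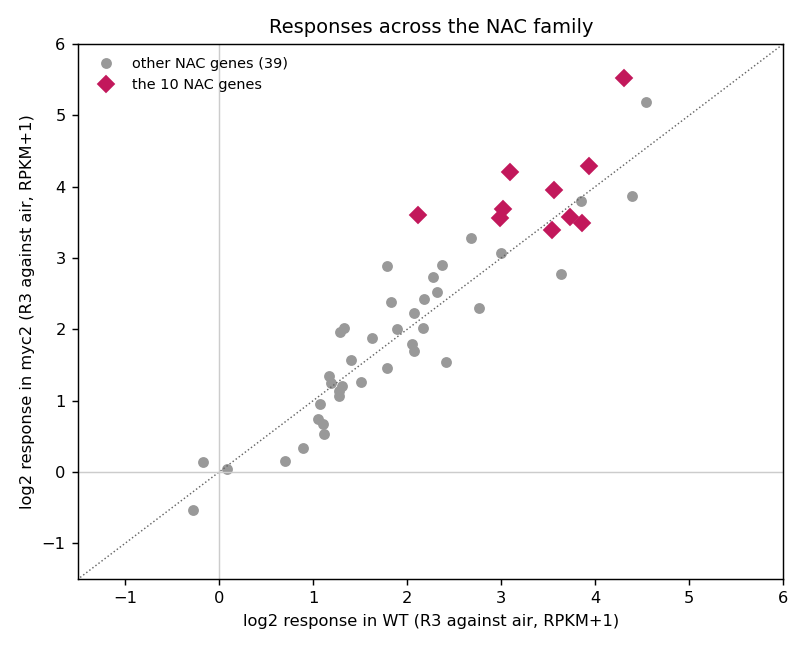
Log2 response (R3 against air, 1 RPKM added) in WT on the x axis and in myc2 on the y axis for the 10 NAC genes (diamonds) and 39 other NAC genes past the filter in both genotypes (circles), with the line of equal response dotted. Of the 10 genes, 7 lie above the line, and of the others 18.

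Related NAC genes of senescence, mitochondria and stress, which are part of the rest of the NAC family counted above, were higher at R3. All 12 past the filter in WT, of 13 listed, were at least 2-fold higher at R3, against 31.3% of all loci, with a median of 2.17. ANAC047 is the NAC047 above. ANAC013, a regulator of mitochondrial stress signalling, stood at 3.61 RPKM in air and 35.7 at R3 in WT, and 3.37 in air and 35.5 at R3 in myc2. The senescence regulators ANAC046 and ANAC087 had log2 responses of 2.37 and 2.31 in WT, and ORS1, the relative of ORE1, of 2.17. ANAC053, which activates oxidative burst genes, had 2.27. In myc2 the count was 12 of 13, against 23.5% of all loci, and the median 2.22.

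Of 5 genes that act with ORE1, upstream of it or as partners of its protein, 1 was at least 2-fold higher in WT at R3, against 31.3% of all loci. This was EIN3, a transcription factor of ethylene signalling, at 24.5 RPKM in air and 52.7 at R3 in WT, and 30.2 in air and 44.9 at R3 in myc2. In WT, EIN2 had a log2 response of 0.72 and EIL1, the relative of EIN3, of -0.75. GLK1 and GLK2, factors of chloroplast maintenance that ORE1 binds and inhibits, had responses of 0.80 and -0.20 in WT. In myc2 none of the 5 was at least 2-fold higher, against 23.5% of all loci. EIL1, at -1.10, was at least 2-fold lower in myc2, where 11.5% of all loci were. Among the other miR164 targets, 2 of 5 were past the filter in WT, ANAC080 at 1.82 and NAC1 at 0.89. ORE1, with 3.73, stood above both.

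Genes reported as targets of these factors gave mixed counts, which stand in WT beside 31.3% of all loci at least 2-fold higher and 10.1% lower. The counts here and in the next paragraph do not separate targets reported as activated from those reported as repressed. For ORE1, 3 of 5 past the filter were at least 2-fold higher in WT: ACS2, an ethylene synthesis enzyme, at 0.105 RPKM in WT air and 15.3 in WT R3, VNI2 with a log2 response of 2.07, and NYE1, which removes magnesium from chlorophyll, with 1.93. PAO had 0.91 and NYC1 -0.45, both enzymes of chlorophyll breakdown. BFN1, SAG29 and RNS3, also reported targets, stayed below 1 RPKM in all 4 libraries. For NAP, both were higher: SAG113, a protein phosphatase that acts in senescing leaves, stood at 1.31, 33.3, 1.14 and 50.7 RPKM, and AAO3, of abscisic acid synthesis, had a response of 1.51.

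For the ANAC019 group, 4 of 7 targets were at least 2-fold higher and 2 lower in WT, where 31.3% and 10.1% of all loci were. ERD1, a chloroplast Clp protease subunit, had a log2 response of 1.92, NYE2 of 1.94, NYE1 of 1.93 and ICS1 of 1.89. LOX2 had -0.59 in WT and -2.51 in myc2, and VSP1, a jasmonate-induced storage protein, had -3.04 in WT. The other lower gene, BSMT1, which methylates salicylic acid, stood at 4.07 RPKM in air and 0.614 at R3 in WT, and 0.183 in air and 0.0467 at R3 in myc2. For JUB1, DREB2A, which it activates, stood at 1.63, 57.6, 1.62 and 89.7 RPKM. GA3OX1 and DWF4, hormone synthesis genes that JUB1 represses, had responses of -1.39 and 0.38 in WT. For ATAF1, 3 of 4 were higher in WT, NCED3 of abscisic acid synthesis at 2.91, the trehalase gene TRE1 at 1.75, and ORE1, itself one of the 10. GLK1, which ATAF1 represses, was the fourth. For ATAF2 and NAC032, 2 of 4 were higher, NIMIN1 at 4.28 and NIT2, a nitrilase, at 4.23. BAS1 had -0.41 and PDF1.2A, a defensin gene, -0.25. In myc2 PDF1.2A was at least 2-fold lower, at -3.46, with 20.3 RPKM in air and 0.930 at R3.

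Senescence and abscisic acid genes were higher at R3 in both genotypes. All 9 senescence markers past the filter were at least 2-fold higher in WT (median 3.13), and 9 of 9 in myc2, beside 31.3% and 23.5% of all loci. SAG21 had a log2 response of 5.44 in WT, and the factors WRKY6, WRKY75 and WRKY53 had 4.04, 3.66 and 3.49. SAG12, a protease of late senescence, was listed at 0, 0.0647, 0 and 0.456 RPKM, from 0, 3, 0 and 17 reads. All 9 abscisic acid genes past the filter were also at least 2-fold higher in both genotypes, beside the same shares, including RD29A at 4.16 and the phosphatases HAB1 at 2.92 and ABI1 at 2.55. One of these 9 is RD26, which is ANAC072. Of the 10 abscisic acid genes listed, RD29B missed the filter. It was listed at 0.0415, 0.146, 0.159 and 0.326 RPKM, from 3, 10, 12 and 18 reads. None of the 4 genes of MYC2 and jasmonate perception was at least 2-fold higher in WT, with MYC2 at 0.98, COI1 at 0.62, MYC4 at 0.52 and MYC3 at 0.35. In myc2, 1 of the 4 was, MYC2 at 1.24. VNI2, ANAC013, NAC1, AAO3, BSMT1, DREB2A, WRKY53, ABI1, COI1, SEP1 and LOV1 also share exon bases with a locus on the opposite strand, as do ABCB4 and AT5G24080 named below.

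The loci whose pattern over the 4 libraries was most like that of a NAC gene were sought among 12053 loci with a mean of at least 5 RPKM, by the distance between log2 values centred on their own mean. For ORE1 the nearest was AT5G12420 at a distance of 0.11, then HB-12, a drought-induced homeobox gene, and AT1G52855. For ANAC055 the nearest were ABCB4, an auxin transporter, at 0.12, AT5G24080 and SDR4. For JUB1 they were AT5G22520 at 0.19, AT3G48630 and the metallothionein gene MT1B. Among the 10 genes, NAP and ATAF2 were the closest pair at 0.10 and ANAC019 and JUB1 the farthest at 2.31. With 4 libraries, likeness is a description.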

How the data were processed

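Leaf RNA was sequenced in 4 libraries, 1 per group, and groups were taken from the sample titles. The authors deposited RPKM values for WT air, myc2 air and myc2 R3, and a column headed FPKM, per the file headers, for WT R3, which was treated as the same unit. Per the submitters' processing notes, TopHat, Cufflinks and the build TAIR10 were used, with settings not given in the sources used here. Mapped reads per library were found from the value that 1 read is worth in loci with 1 transcript. Reads per gene then came out whole, within 0.001, in 173 of 173 loci looked at that were above 0. The length of each locus was the smallest from 200 to 8000 bases that made all its counts whole. For loci above 0 in 1 library only, such as CRU3, this fit shows little. No count test was run, because each group is 1 library. Exact Poisson intervals at 95% and exact conditional intervals of ratios cover counting error only. Log2 ratios used a pseudocount of 1 RPKM and a filter at a mean of 1 RPKM, and loci at least 2-fold apart were counted. The 10 members, the 18 lists and the naming rules were chosen with earlier results of these data known. All 10 genes were described, with up to 4 genes of each list by the size of the WT response, 1 in the other direction, and up to 6 related NAC genes. The targets of the ANAC019 group were all named. The 7 alternatives were pseudocounts of 0.1 and 5 RPKM, no filter, a filter at 5 RPKM, and 3 rescalings. Family members were taken by name in the reference. Sites and promoter letters were read from TAIR10.1. Python 3.11.15, pandas 2.3.3, SciPy 1.17.1 and Biopython 1.88 were used, and the computation was tested on simulated data.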

Additional observations from a re-analysis of the deposited data

Results flagged for a closer look

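The 3 genes ATAF1, NAC032 and NAC102 of the ATAF group lay below WT in myc2 air and above WT in myc2 R3, with both counting intervals away from 1. The difference of their log2 ratios without a pseudocount, R3 less air, was 0.417 for ATAF1, 1.40 for NAC032 and 1.13 for NAC102. The difference was not tested, since each group is 1 library, and for ATAF1 the R3 direction turned under rescaling to equal sums. ATAF1 and NAC102 also share exon bases with loci on the opposite strand. For ATAF1, AT1G01725 stood at 6.61 RPKM in WT and 7.04 in myc2 in air, and at 11.6 and 22.9 at R3. For NAC102, AT5G63780 stood at 56.9 and 48.5 in air, and at 6.89 and 7.57 at R3. Their part in these differences was not tested.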

How the results depend on the processing

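Of 70 counts of the 10 genes under the 7 alternatives, 68 stayed within 1.5 times the reported count and 2 moved: the count at least 2-fold lower in myc2 air, 1 as reported (ANAC019), was 0 with a pseudocount of 5 RPKM and 0 with a filter at a mean of 5 RPKM. Of 330 log2 ratios of the 10 genes, 82 moved by more than their counting interval and none that was called changed sign. JUB1 in WT R3 against WT air lay at 0.81 with a pseudocount of 5 RPKM, under the 2-fold line. The difference of responses ranged from -0.40 to 0.03 for ORE1, from -0.09 to 0.61 for ANAC019 and from -0.28 to 0.09 for ANAC072. Among the other lists, 64 of 1190 counts moved by more than 1.5 times. Counts over all loci moved by more than 1.5 times as well: the higher loci in WT at R3 numbered 5398 as deposited, 3157 with a pseudocount of 5 RPKM and 2995 at the median of ratios, and those higher in myc2 air 410, 100 and 215. The cause was not tested. ORE1, ANAC055 and JUB1 had 10 to 60 reads in the air libraries, which limits their ratios. No paired analysis was possible because each group is 1 library.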

Other observations

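NAC genes of other cell types were at or near 0 in most libraries. Of 10 listed, BRN1 and BRN2, of the root cap, were listed at 0 in all 4. NST1, a regulator of secondary walls, stood at 0.0469 RPKM in air and 2.36 at R3 in WT, and 0.450 and 0.327 in myc2, from 3, 143, 30 and 16 reads. VND6, a regulator of vessel formation, stood at 0.291, 1.72, 0.615 and 0.610 RPKM. Both were highest in WT R3. Among the 5 root markers, PYK10, a glucosidase of ER bodies, was also highest there, at 2.91 RPKM in air and 62.8 at R3 in WT, and 6.54 and 11.4 in myc2. MBP1 went the other way in WT, from 38.4 RPKM in air to 19.3 at R3, RHD6 was at 0 in every library and EXPA7 at most at 0.0649. The 5 root markers summed to 93.5 RPKM in WT R3 against 50.2 in WT air, and without PYK10 to 30.7 against 47.3. VND6 and PYK10 share exon bases with a locus on the opposite strand. The part of these markers in the NAC levels was not tested.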
